A study of Mus musculus with 6 samples.

Results

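The genes described here encode the SR proteins and the heterogeneous nuclear ribonucleoproteins (hnRNPs), with their companions in the choice of splice sites, in long-term haematopoietic stem cells (LT-HSC). Members were chosen by symbol: the serine and arginine rich splicing factors (Srsf), the related Tra2 genes, the Clk kinases, the Hnrnp genes, the Sf3a and Sf3b subunits and the numbered Rbm genes, with pseudogenes left out. The table held 82 such genes, all protein coding, and 78 of them reached 1 CPM (reads scaled to library size) in at least 3 of the 6 libraries, among 13018 of 27179 genes that did. The 78 were 11 SRSF, 2 TRA2, 4 CLK, 20 hnRNP, 9 SF3 and 32 RBM genes. The 4 that did not were Rbm20, Rbm24, Rbm46 and Rbm31y.

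Both groups were adult C57BL/6 mice, 8 to 12 weeks old, with conditional (cko/cko) alleles of Prdm16, a zinc-finger transcription regulator that stem cells express. The control group (WT, genotype Prdm16-Mx1-Cko/Cko; +/+) had no Cre transgene, and the knockout group (Cko, genotype Prdm16-Mx1-Cko/Cko; Tg/+) carried Mx1-Cre, which is driven by an interferon-responsive promoter and is therefore not restricted to stem cells. Mice of both groups, controls included, received pIpC, an RNA mimic that switches on the Mx1 promoter, 5 times on alternate days, and marrow was taken 5 weeks later. LT-HSC were sorted as Lin-Sca-1+c-Kit+CD48-CD150+ cells. Marrow from 5 mice of a genotype was pooled and sorted as 3 technical replicates, so errors and p-values measure the spread between portions of 1 sort and not between animals, and the group difference cannot be told apart from a difference between the 2 pools.

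Splicing removes introns from the first RNA copy of a gene. The U2 small nuclear ribonucleoprotein, of which the SF3A and SF3B subunits are part, recognises the branch point, and SR proteins bind exonic enhancers through RNA recognition motifs and recruit the machinery through tails rich in arginine and serine. Many hnRNPs bind silencer elements and oppose them, and CLK kinases phosphorylate the SR tails and release SR proteins from nuclear speckles. SRSF2 and SF3B1 are among the genes most often mutated in human myelodysplastic syndromes, which arise in blood stem cells. Many SR and hnRNP genes also limit their own RNA through exons that carry stop codons, which gene totals such as those used here cannot show.

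Libraries held 36747729 to 43743795 reads. Prdm16 had 40.3, 50.5 and 31.7 CPM in WT and 8.74, 9.04 and 14.7 CPM in Cko, so the groups did not overlap and the targeted gene matched the labels (log2 fold change -1.93, SE 0.27, limma adjusted p = 0.00829). That call was lost without Cko replicate 2 (adjusted p = 0.065), without the variance trend (0.0967) and without the filter (0.0599). All 15 LT-HSC genes of a marker list, such as Kit and Procr, were measured in both groups, summing to 4143.0 to 4323.7 CPM in WT and 4071.4 to 4403.8 CPM in Cko. The groups did not overlap for 6 of the 15, 4 higher and 2 lower in Cko, or 40% beside 16.5% of all genes. Of the 15, 0 were called (limma, adjusted p below 0.05). The lineage genes Cd3e, Cd8a and Ms4a1 had 0 reads in every WT library, and of these Ms4a1 had reads in Cko. Across all genes tested, 53 passed as higher and 38 as lower in Cko (limma, adjusted p below 0.05). Removing 1 library changed both counts. Without WT replicate 1, 2 or 3 there were 64, 45 and 41 higher and 28, 25 and 22 lower genes. Without Cko replicate 1, 2 or 3 there were 28, 22 and 20 higher and 24, 19 and 23 lower genes.

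No splicing regulator passed the test. Of the 78 members 0 were higher and 0 lower in Cko (limma, adjusted p below 0.05), where 0.699% of all genes tested were called, 0.407% higher and 0.292% lower. The smallest adjusted p was 0.255, for Srsf1. At an unadjusted p below 0.05 there were 4 members, Srsf1 and Tra2b with higher means and Clk4 and Rbm39 with lower means in Cko, which is 5.1% of the 78 beside 10.3% of all genes (5.58% higher and 4.72% lower). Voom on recovered reads called 0 members too, with 5 at an unadjusted p below 0.05. The WT and Cko libraries did not overlap for 12 members, 5 higher and 7 lower, or 15.4% beside 16.5% of all genes (8.52% higher and 8.01% lower). Both shares were no larger than those of all genes. Among genes with a mean of at least 20 CPM, the share at an unadjusted p below 0.05 was 5.7% for members and 10.4% for others. The share without overlap was 17.1% for these members and 16.3% for the others.

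Members had 43 positive and 35 negative log2 fold changes with a median of 0.023, beside a median of 0.003 over all genes tested. The median size of a change, whatever its sign, was 0.125 for the members and 0.176 for all genes. The members are mostly abundant RNAs, with a median level of 149.9 CPM beside 37.7 CPM for all genes, and abundance goes with smaller errors. Their median SE was 0.111, beside 0.199 for all genes. For the 70 members of at least 20 CPM it was 0.106, beside 0.152 for the 8346 other genes of at least 20 CPM. The median levels of these 2 sets still differed, at 160.1 and 67.7 CPM.

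The intervals show what size of difference these libraries could hold. For 64 of the 78 members the 95% interval of the fold change lay wholly inside 1.5-fold in either direction, and for 71 it lay inside 2-fold, beside 44.2% and 70.1% of all genes. With a mean of at least 20 CPM, 91.4% of members and 67.2% of other genes had intervals inside 1.5-fold. Among the 47 members with a mean of at least 100 CPM all 47 intervals lay inside 1.5-fold. Among the 8 members under 20 CPM, all of them RBM genes except Srsf12, 0 lay inside 1.5-fold and 1 inside 2-fold. These intervals cover the spread between portions of the 2 pools and no spread between mice.

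**Figure D1:**
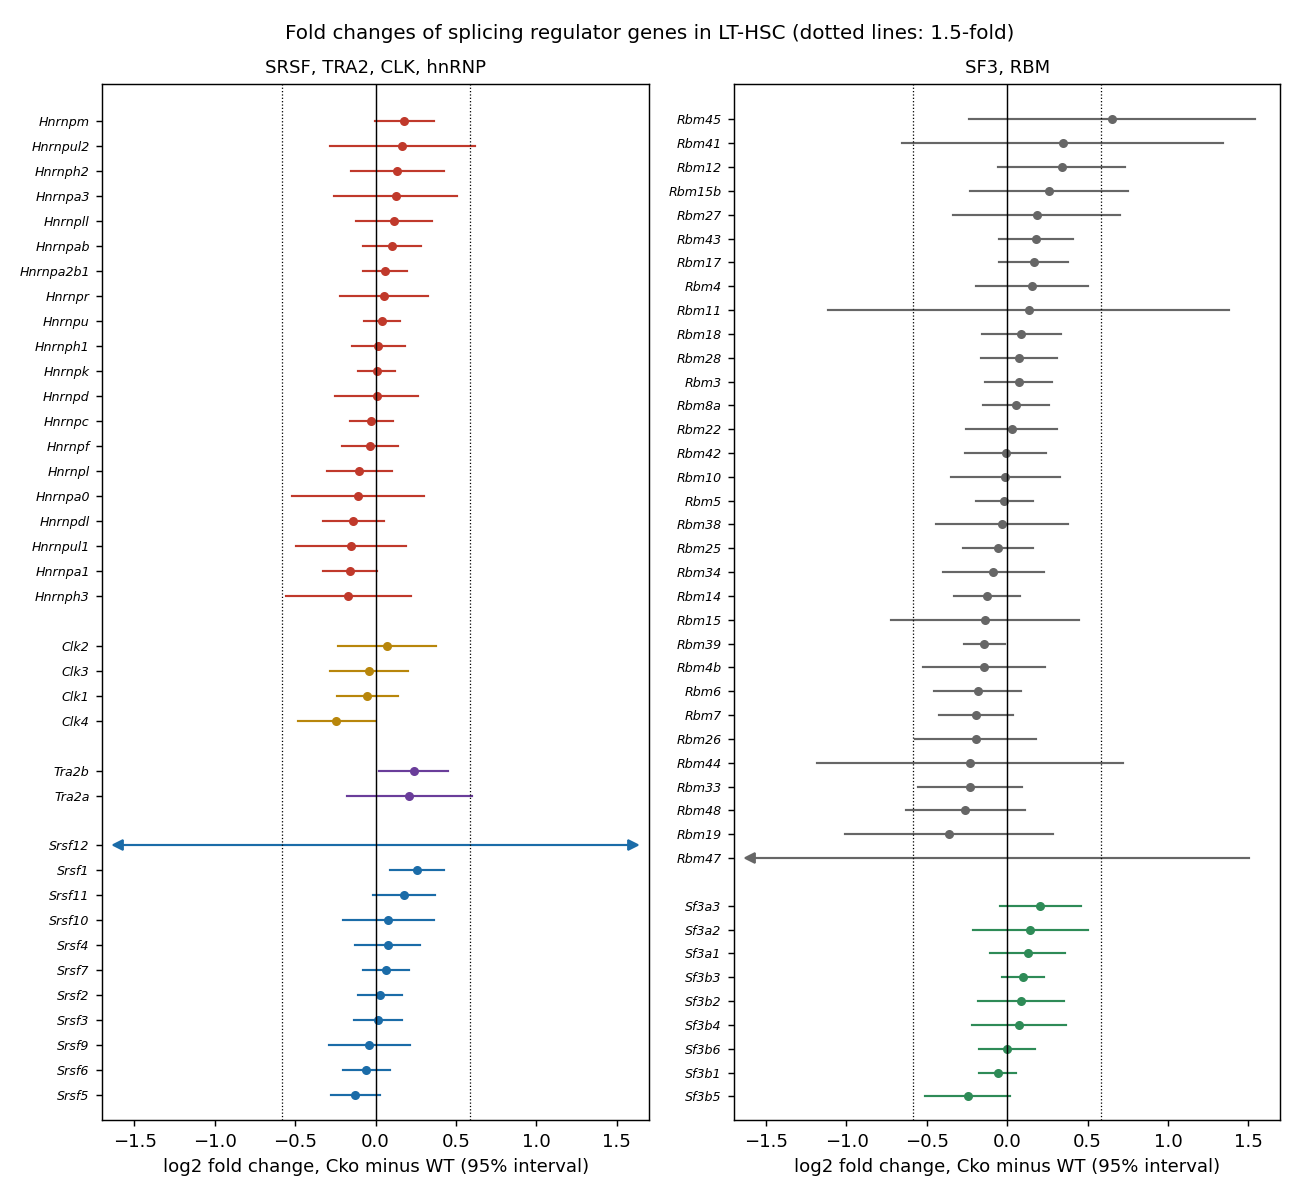
Log2 fold change (Cko minus WT) of the 78 members on the horizontal axis, with its 95% limma interval as a line, by family; dotted lines mark 1.5-fold in either direction and arrowheads mark intervals that run past the axis. In 64 of 78 members the line stays between the dotted lines, and the long lines belong to members of low abundance such as Srsf12, Rbm47, Rbm11 and Rbm44.

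The 4 members with the smallest p-values are shown first with the sequence before their transcription start, because they come nearest to a difference between the groups. Each run is the 250 bases before the start given for the gene in a promoter table from RefSeq (GRCm38.p6, the assembly that mm10 names), written 5′ to 3′ on the strand of the gene. Capitals mark matches, on either strand, to any of the motifs searched. These were the CCAAT box spelled CCAAT, the GC box spelled GGGCGG, the E-box spelled CACGTG, the AP-1 site spelled TGACTCA, the cAMP response element (CRE) spelled TGACGTCA, the ETS core spelled CCGGAAG and the TATA element spelled TATAAA, and none of them contains another. The Srsf1 run is chr11:88047123-88047372 (plus strand), inside the annotated span of the gene, which begins farther upstream, that of Tra2b chr16:22266006-22266255 (minus), that of Clk4 chr11:51262864-51263113 (plus) and that of Rbm39 chr2:156180239-156180488 (minus).
Srsf1: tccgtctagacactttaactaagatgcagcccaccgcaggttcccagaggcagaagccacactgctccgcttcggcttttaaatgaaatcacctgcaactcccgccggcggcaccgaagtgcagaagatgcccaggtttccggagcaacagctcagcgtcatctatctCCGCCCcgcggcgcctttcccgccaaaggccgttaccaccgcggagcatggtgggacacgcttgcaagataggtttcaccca
Tra2b: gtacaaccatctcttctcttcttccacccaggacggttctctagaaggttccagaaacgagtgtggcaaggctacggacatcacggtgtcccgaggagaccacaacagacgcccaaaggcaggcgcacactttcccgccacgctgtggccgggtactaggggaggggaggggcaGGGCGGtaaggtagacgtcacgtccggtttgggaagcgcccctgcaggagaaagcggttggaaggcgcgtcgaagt
Clk4: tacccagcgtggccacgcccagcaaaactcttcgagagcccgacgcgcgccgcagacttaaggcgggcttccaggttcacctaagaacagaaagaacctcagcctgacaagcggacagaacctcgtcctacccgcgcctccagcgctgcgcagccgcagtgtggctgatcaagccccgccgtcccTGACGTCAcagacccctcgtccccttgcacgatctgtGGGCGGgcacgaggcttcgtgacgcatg
Rbm39: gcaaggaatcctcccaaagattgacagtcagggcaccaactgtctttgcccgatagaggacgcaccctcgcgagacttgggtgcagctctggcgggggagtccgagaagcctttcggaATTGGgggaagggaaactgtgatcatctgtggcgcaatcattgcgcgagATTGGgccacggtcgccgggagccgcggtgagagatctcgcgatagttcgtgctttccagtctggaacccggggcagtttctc
Srsf1 and Tra2b each had 1 GC box match, that of Srsf1 on the opposite strand, Clk4 had a CRE match as well as a GC box match, and Rbm39 had 2 CCAAT matches, both on the opposite strand. A promoter was listed for 68 of the 78 members and for 10119 of the genes tested. A GC box match was found in 61.8% of member promoters and 59% of all, a CCAAT match in 45.6% and 36.8%, an ETS core match in 25% and 14.2%, a TATA match in 11.8% and 6.34%, an E-box match in 7.35% and 8.48%, a CRE match in 2.94% and 2.71%, and an AP-1 match in 1.47% and 2.78%. No motif was searched beyond these 7, and a match is a description of letters. The median GC content was 60.6% for members and 59.6% for all. The median ratio of observed to expected CpG was 0.87 for members and 0.73 for all.

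Among SR proteins, Srsf1 (gene ID 110809, chromosome 11, 88046499 to 88053757, mm10), the founding member that acts both in basic splicing and at exonic enhancers, had 411.8, 439.5 and 396.4 CPM in WT and 456.3, 527.8 and 509.4 CPM in Cko. Every Cko library was above every WT library, the nearest being WT replicate 2 and Cko replicate 1. The means were 415.9 ± 21.9 and 497.8 ± 37.1 CPM (SD, n = 3 each). The fold change was 1.2 with a 95% interval of 1.06 to 1.34 (log2 0.26, SE 0.08), and it did not pass the test over all genes (limma adjusted p = 0.255, 0.127 to 0.709 over 18 alternatives). The log2 value stayed between 0.21 and 0.32 in those 18.

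Srsf2, Srsf7 and Srsf3 had intervals close to 1 on both sides. Srsf2, which binds both C-rich and G-rich enhancers and is mutated in myelodysplasia, had 776.4, 764.4 and 856.9 CPM in WT and 785.3, 845.9 and 812.6 CPM in Cko, with a fold change of 1.02 (95% interval 0.929 to 1.12). Srsf7, a zinc-knuckle SR protein, had 958.8, 908.1 and 865.7 against 890.5, 1016.7 and 953.2 CPM, with an interval of 0.949 to 1.15. Their groups overlapped. Srsf3, the smallest SR protein, which also takes part in mRNA export, had 627.8, 624.5 and 637.1 against 582.9, 681.0 and 652.0 CPM, with an interval of 0.912 to 1.12. Its WT libraries lay inside the range of its Cko libraries.

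Srsf11 and Srsf5 had the next smallest p-values in the family. Srsf11, a nuclear SR protein that favours short exons, had 356.1, 302.4 and 305.9 CPM in WT and 339.0, 381.1 and 368.6 CPM in Cko (log2 fold change 0.18, SE 0.09, limma adjusted p = 0.515). Srsf5, also called SRp40, had 752.2, 690.5 and 637.3 against 624.2, 655.1 and 622.2 CPM (-0.13, SE 0.07, adjusted p = 0.564), which is the lowest fold change among the 11 SRSF genes. In each, the groups overlapped through a single library, WT replicate 1 for Srsf11 and Cko replicate 2 for Srsf5. The other SRSF genes of at least 20 CPM (Srsf4, Srsf6, Srsf9 and Srsf10) had intervals inside 1.5-fold.

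Srsf12 had 0, 203 and 148 reads in the WT libraries and 46, 200 and 169 in the Cko libraries. Its 0 reads in WT replicate 1 allow at most 3 reads, or 0.0742 CPM, whereas the other 2 WT libraries had 5.51 and 3.39 CPM. No fold change is given, since the fitted value depends on the offset added to that 0 and its sign turned without WT replicate 1. Such a 0 beside 100 or more reads in another library of the same group occurred in 2 members, Srsf12 and Rbm47, and in 215 of all genes tested (1.65%). The limit covers counting error only, as PCR copies of a molecule are counted with it.

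Both TRA2 genes, whose products bind purine-rich enhancers and work with SR proteins, had higher means in Cko. Tra2b (chromosome 16, 22244552 to 22266005) had 142.9, 145.8 and 128.6 CPM in WT and 170.7, 162.7 and 157.6 CPM in Cko, without overlap. Its fold change was 1.18 (95% interval 1.02 to 1.37, limma adjusted p = 0.426). Tra2a had 56.7, 48.9 and 37.7 against 59.3, 53.6 and 50.8 CPM, where WT replicate 1 overlapped the Cko libraries (fold change 1.16, interval 0.883 to 1.51, adjusted p = 0.719). Of the Tra2b transcript, 18.3% of 50-base stretches also occur in transcripts of other genes, so part of its reads may have been counted elsewhere.

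Of the CLK kinases, Clk4 (chromosome 11, 51263114 to 51281770) had 123.6, 138.0 and 132.7 CPM in WT and 122.0, 104.8 and 106.5 CPM in Cko. The groups did not overlap, although WT replicate 1 and Cko replicate 1 were nearly equal. The fold change was 0.844 (95% interval 0.715 to 0.997, limma adjusted p = 0.473). Clk1, the best studied of the family, had 285.3, 322.1 and 286.8 against 277.3, 274.3 and 310.7 CPM (interval 0.845 to 1.1). Clk2 had 73.7, 57.8 and 68.0 against 74.0, 67.9 and 66.8 CPM (interval 0.851 to 1.30) and Clk3 had 111.9, 138.5 and 122.2 against 119.3, 121.1 and 119.9 CPM (interval 0.820 to 1.15). The groups of Clk1, Clk2 and Clk3 overlapped, and the signs for Clk1 (0.00) and Clk2 (-0.03) turned without WT replicate 2.

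**Figure D2:**
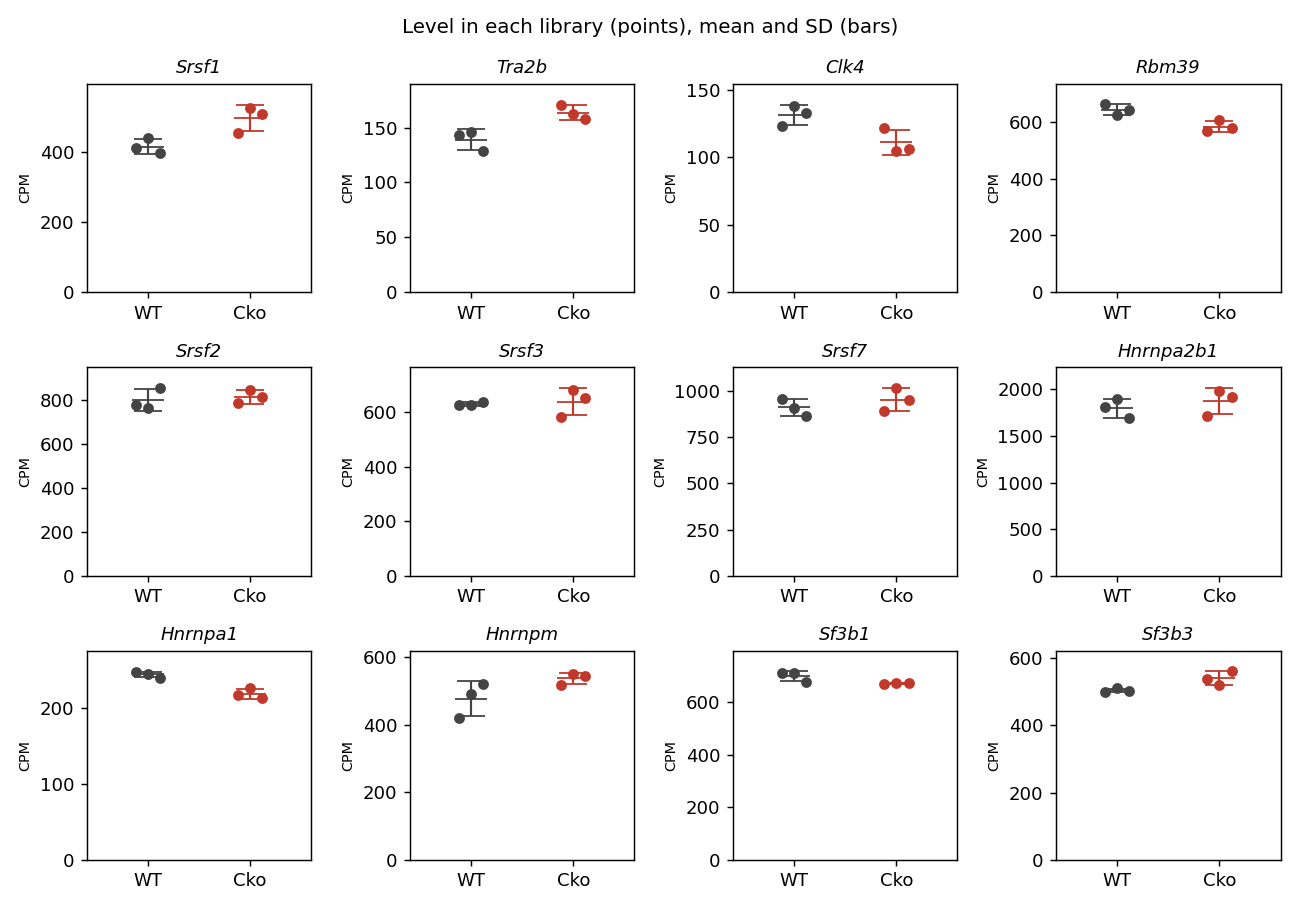
CPM (vertical axis, from 0) of 12 members in each of the 3 WT and 3 Cko libraries, as points, with the mean and SD of each group as bars. The groups lie apart in Srsf1, Tra2b, Clk4, Rbm39, Hnrnpa1, Sf3b1 and Sf3b3, none of which passed the test, and they overlap in Srsf2, Srsf3, Srsf7, Hnrnpa2b1 and Hnrnpm.

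Of the hnRNPs, 19 of 20 had intervals inside 1.5-fold, Hnrnpul2 being the exception, and the median log2 fold change was 0.013. Hnrnpm, a factor of exon skipping in epithelial and mesenchymal programmes, had 420.1, 489.4 and 520.5 CPM in WT and 518.2, 550.0 and 544.0 CPM in Cko. WT replicate 1 stood below the other 5 libraries and WT replicate 3 overlapped Cko. Its log2 fold change of 0.18 (SE 0.08, limma adjusted p = 0.492) was the highest of the family.

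Hnrnpa1 (chromosome 15, 103239943 to 103246698), the classical silencer protein that counters SRSF1, had 247.6, 245.0 and 240.1 CPM in WT and 217.0, 226.4 and 213.0 CPM in Cko. The groups lay apart, with a fold change of 0.896 (95% interval 0.796 to 1.01, limma adjusted p = 0.507). Its level is uncertain, because 46.4% of the 50-base stretches of its transcript occur in transcripts of 18 other genes, copies and pseudogenes among them, and how reads that map to several places were counted is not stated in any source used. The same holds for Hnrnpa3, at 26.1 ± 2.07 CPM in WT and 28.5 ± 0.628 in Cko (SD, n = 3 each), with 28.2% of stretches shared with 43 genes.

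Hnrnpdl, an hnRNP D relative, had 220.0, 218.5 and 220.0 CPM in WT and 207.6, 207.8 and 184.0 CPM in Cko, again without overlap (log2 fold change -0.14, SE 0.09, limma adjusted p = 0.609). Hnrnph3, which binds runs of G, had 31.7, 26.1 and 29.7 against 25.1, 26.3 and 26.2 CPM, with overlapping groups and the lowest log2 fold change of the family (-0.17, SE 0.17, adjusted p = 0.781). Large differences were not seen in the abundant core hnRNPs. The 95% interval of the fold change was 0.948 to 1.15 for Hnrnpa2b1, 0.949 to 1.11 for Hnrnpu, a chromatin scaffold protein, 0.929 to 1.09 for Hnrnpk, which binds C-rich RNA, and 0.894 to 1.08 for Hnrnpc, which binds U tracts.

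All 9 SF3 genes had intervals inside 1.5-fold. Sf3b1 (chromosome 1, 54985169 to 55027501), which holds the branch point and is mutated in myelodysplasia, had 711.7, 708.5 and 677.4 CPM in WT and 667.6, 673.9 and 670.5 CPM in Cko. The Cko libraries lay just below the lowest WT library, and the fold change was 0.959 (95% interval 0.885 to 1.04, limma adjusted p = 0.736). Sf3b3, the large scaffold of the complex, had 499.2, 510.4 and 502.6 against 539.4, 521.1 and 561.2 CPM (log2 fold change 0.10, SE 0.06, adjusted p = 0.593), with every Cko library above every WT library.

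Sf3b5, a small SF3B subunit, had the lowest log2 fold change among the SF3 genes and Sf3a3, the SF3A subunit that contacts SF3B, the highest. Sf3b5 had 179.8, 147.6 and 144.8 CPM in WT and 123.5, 147.5 and 126.4 CPM in Cko (-0.25, SE 0.12, limma adjusted p = 0.513). Sf3a3 had 192.0, 156.0 and 167.8 against 212.1, 174.1 and 209.2 CPM (0.21, SE 0.11, adjusted p = 0.567). Their groups overlapped through 1 Cko library each, replicate 2. Within the complex, Sf3b6 had the same mean in both groups, 290.3 ± 11.6 and 290.3 ± 16.5 CPM (SD, n = 3 each).

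The RBM genes are a naming class of proteins with RNA recognition motifs, and their roles differ. Rbm39 (chromosome 2, 156147239 to 156180238), a U2AF relative that helps define acceptor sites, had 663.7, 625.0 and 642.7 CPM in WT and 566.9, 605.6 and 578.2 CPM in Cko. The groups did not overlap, with a fold change of 0.906 (95% interval 0.829 to 0.990, limma adjusted p = 0.423). Rbm12 had 60.4, 60.7 and 72.5 against 103.6, 80.7 and 64.6 CPM (log2 fold change 0.34, SE 0.18, adjusted p = 0.552), where Cko replicate 1 was high and Cko replicate 3 fell among the WT values. Rbm7, part of the nuclear exosome targeting complex, had 178.2, 162.2 and 177.7 against 136.1, 152.9 and 165.2 CPM (-0.19, SE 0.10, adjusted p = 0.559), where Cko replicate 3 overlapped WT.

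Rbm45, at 3.12, 7.73 and 5.66 CPM in WT and 8.90, 7.38 and 8.08 CPM in Cko, had the highest log2 fold change of its family with a wide interval (0.65, -0.24 to 1.54). WT replicate 2 overlapped the Cko libraries. Rbm47, an epithelial RNA-binding protein, had 85, 103 and 149 reads in WT and 0, 219 and 61 in Cko. Its libraries overlapped and no fold is given, since the lowest fitted value of the family rests on the 0 in Cko replicate 1. Rbm5, Rbm10 and Rbm25, whose products regulate exons of apoptosis genes, had fold change intervals of 0.875 to 1.12, 0.785 to 1.25 and 0.826 to 1.12. The interval was 0.902 to 1.2 for Rbm8a, a core protein of the exon junction complex, and 0.606 to 1.37 for Rbm15, a cofactor of RNA methylation that is needed in megakaryocytes.

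The remaining members without overlap were Rbm43 and Rbm17, higher in Cko, and Rbm48 and Rbm14, lower. Rbm17, a U2AF-binding splicing factor, had means of 134.8 ± 8.78 and 150.9 ± 5.90 CPM and Rbm43 161.5 ± 17.6 and 182.1 ± 5.65 CPM. Rbm48, a protein of the minor spliceosome, had 35.3 ± 3.24 and 29.4 ± 2.21 CPM and Rbm14, a paraspeckle protein, 165.1 ± 9.11 and 151.2 ± 5.91 CPM (WT then Cko, SD, n = 3 each). Their limma adjusted p-values ran from 0.585 to 0.665. Of the 4 members below the filter, Rbm20, a regulator of heart muscle splicing, had 14 to 70 reads in every library, Rbm24 had 0 to 28, Rbm46, a germ cell gene, had 9 reads in WT replicate 3 and 0 elsewhere, and Rbm31y had 0 in all 6.

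**Figure D3:**
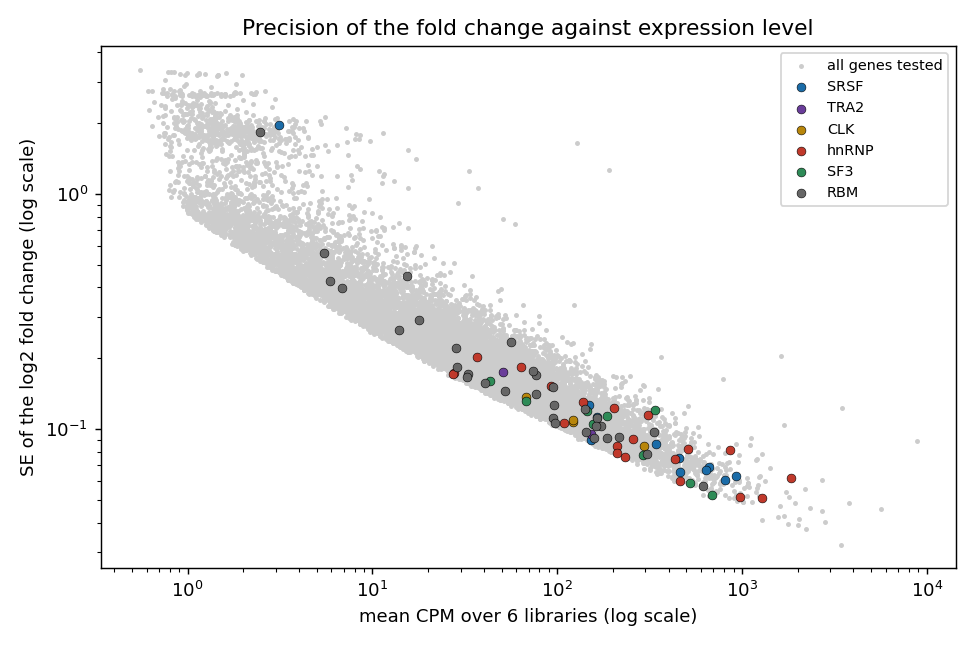
SE of the log2 fold change (vertical axis, log scale) against mean CPM over the 6 libraries (horizontal axis, log scale) for all 13018 genes tested, in grey, and the 78 members, coloured by family. Members of 100 CPM or more sit low on the right, and the 2 members at the upper left, Srsf12 and Rbm47, each had a library with 0 reads.

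Summed over all 78 members, WT libraries had 19481, 19897 and 19606 CPM and Cko libraries 19346, 20309 and 20214 CPM. The Cko sums ran from below the lowest to above the highest WT sum. By family, SRSF genes summed to 4700.4 ± 101.9 CPM in WT and 4825.0 ± 266.4 in Cko, hnRNPs to 8170.1 ± 221.4 and 8358.0 ± 305.2, SF3 genes to 2407.8 ± 2.12 and 2456.9 ± 46.9, RBM genes to 3576.2 ± 31.6 and 3510.1 ± 35.5, CLK genes to 620.2 ± 32.3 and 588.2 ± 18.3, and TRA2 genes to 186.9 ± 18 and 218.2 ± 11 (SD, n = 3 each). The median log2 fold change was 0.065 for SRSF, 0.222 for TRA2, -0.048 for CLK, 0.086 for SF3 and -0.015 for RBM genes. These medians and that of the hnRNPs kept their signs after median centring and quantile normalization, but the hnRNP median was -0.012, -0.001 and -0.032 without WT replicate 1, WT replicate 3 and Cko replicate 3. Only the TRA2 and SF3 sums did not overlap between the groups. In bulk samples, a different share of cells and a different amount of RNA per cell cannot be told apart.

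Levels were compared between genes only per kilobase of exon (GENCODE M21 exon union, which is long for genes with many transcripts and lowers their values). In WT the highest were Hnrnpab (298.2 ± 34.2 CPM per kilobase), Hnrnpa2b1 (272.9 ± 15.7), Srsf2 (270.2 ± 17.0) and Srsf7 (256.6 ± 13.1), and neighbours in this order differed by less than the larger of their SDs. Srsf5 followed at 173.9 ± 14.4 and Hnrnpk at 150.3 ± 3.99 (SD, n = 3 each). Hnrnpab, Hnrnpa2b1, Srsf2 and Srsf7 were also the 4 highest in Cko, at 319.0 ± 18.2, 284.8 ± 21.3, 275.4 ± 10.3 and 268.6 ± 17.8. The lowest of the 78 in WT was Rbm47 at 0.387 ± 0.0917. Of the 78, 20 shared at least 10% of their 50-base stretches with another gene, overlapping gene models included, and 35 shared none, while 19 overlap another gene of the table and could not be separated from it if strand was not used. The highest shares were those of Rbm42 (92.3%), Rbm4 (66.5%), Sf3b4 (49.3%), Hnrnpf (49%) and Hnrnpa1 (46.4%). The 20 also include Rbm10 (41%), Hnrnpk (34.5%), Rbm12 (32.6%), Srsf3 (31.5%), Hnrnpm (28.8%) and Srsf5 (27.8%). Part of their reads may have been counted elsewhere too.

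The other genes of the splicing pathway gave the same count of calls. In lists of partner proteins, 0 of 28 U1, U2, Sm and U2AF genes, 0 of 44 tri-snRNP and catalytic genes, 0 of 44 other splicing regulators, 0 of 14 kinases and transport receptors of SR proteins and 0 of 16 exon junction and nonsense-mediated decay genes passed in either direction (limma, adjusted p below 0.05). Of these 146 genes 13 had an unadjusted p below 0.05, 9 higher and 4 lower, or 8.9% beside 10.3% of all genes. Their median log2 fold change was 0.023. By list, the share at an unadjusted p below 0.05 (limma) was 15.9% for other splicing regulators and 21.4% for kinases and transport receptors. The 21.4% is 3 of 14 genes and includes Srpk3, which passed the filter only through its Cko libraries. It was 3.6% for the U1, U2, Sm and U2AF genes, 4.5% for tri-snRNP and catalytic genes and 0% for exon junction and decay genes.

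Among these partners the smallest p belonged to Mbnl1, a muscleblind splicing regulator that is active in blood cells, at 546.9, 558.3 and 512.6 CPM in WT and 420.9, 469.6 and 455.0 CPM in Cko. The groups lay apart, with a fold change of 0.831 (95% interval 0.748 to 0.923, limma adjusted p = 0.175). Ddx5, an RNA helicase, had 999.1, 1105.0 and 974.8 against 783.8, 905.0 and 907.2 CPM (0.842, interval 0.754 to 0.942, adjusted p = 0.253), also without overlap. Ppp1ca, a phosphatase subunit that acts on SR proteins among many substrates, had 692.4, 666.0 and 673.8 against 774.2, 794.4 and 735.4 CPM (1.13, interval 1.04 to 1.23, adjusted p = 0.270). Srpk3, a muscle kinase of SR proteins, had 21, 1 and 9 reads in WT and 73, 60 and 123 in Cko (limma adjusted p = 0.382). It was tested only because its Cko libraries reached 1 CPM.

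Snrnp70, the U1 protein that SR proteins contact, had 164.6 ± 5.53 CPM in WT and 188.2 ± 6.97 in Cko (adjusted p = 0.475), and Puf60, a U2AF relative, 413.2 ± 24.8 and 453.6 ± 26.4 (0.566). Usp39, a tri-snRNP factor, had 126.1 ± 11.8 and 101.9 ± 9.19 CPM (0.398), and Aqr, an intron-binding helicase, 120.2 ± 4.03 and 152.7 ± 28.0 (0.445). Eif4a3, the helicase of the exon junction complex, had 324.9 ± 10.4 and 292.3 ± 24.2 CPM (0.552), and Upf3b, a decay factor, 48.7 ± 6.57 and 60.2 ± 7.39 (0.550; limma, SD, n = 3 each). Snrnp70 and Usp39 had groups without overlap and the other 4 did not. Of other genes mutated in myelodysplasia, U2af1 had a log2 fold change of 0.05 (SE 0.14), Zrsr2 0.15 (SE 0.22) and Prpf8 -0.18 (SE 0.10), and 0 of these 3 passed.

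**Figure D4:**
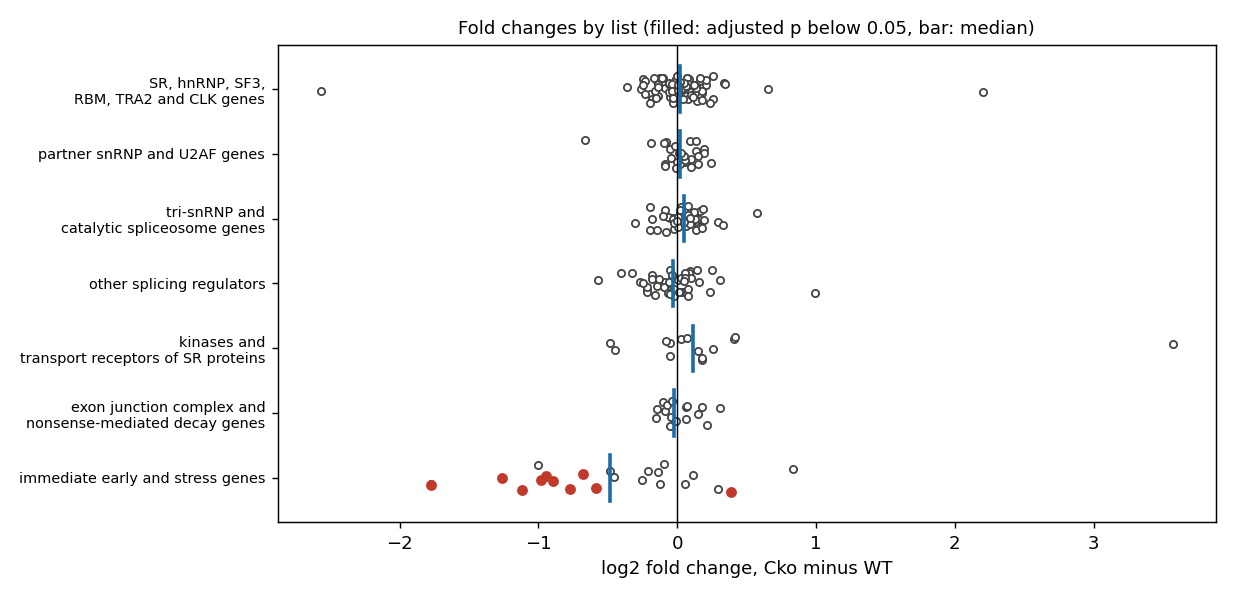
Log2 fold change (Cko minus WT, horizontal axis) of each tested gene in the member set and 6 lists, with filled points for limma adjusted p below 0.05 and a bar at each median. No point is filled in the members or the 5 splicing lists, and 10 of 23 points are filled in the list of immediate early and stress genes.

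In the same libraries other gene groups did differ. Of 23 immediate early and stress genes 9 were called lower and 1 higher (limma, adjusted p below 0.05), beside 0.292% and 0.407% of all genes. By sign, 18 of the 23 log2 fold changes were negative and 5 positive (median -0.49). Fos fell by 1.12, Fosb by 1.77, Jun by 0.95, Junb by 0.77, Egr1 by 1.26, Ier2 by 0.59, Dusp1 by 0.90, Zfp36 by 0.98 and Klf6 by 0.68 on the log2 scale, and Hspa8, a chaperone, rose by 0.39. Neutrophil genes were called higher in 11 of 15 tested, summing over 16 genes to 310.3 to 325.2 CPM in WT and 1160.1 to 1361.2 CPM in Cko, with Mmp8 at 0 in WT. Mast cell, basophil and eosinophil genes were called higher in 6 of 10, with sums of 100.8 to 111.7 and 712.1 to 804.0 CPM over 12 genes and Mcpt8, Prss34, Ms4a2, Epx and Cma1 at 0 in WT. B and plasma cell genes were called higher in 1 of 7, with sums of 60.8 to 67.7 and 236.4 to 251.2 CPM over 11 genes and Igkc, Ms4a1, Ebf1 and Pax5 among those at 0 in WT. Macrophage and monocyte genes were called higher in 2 of 8, megakaryocyte genes in 2 of 9, stromal genes in 1 of 6 and erythroid genes in 0 of 8. Over 10 genes each, macrophage and monocyte sums were 572.0 to 589.4 CPM in WT and 785.4 to 894.3 CPM in Cko. Megakaryocyte sums were 942.5 to 1024.4 and 1321.9 to 1480.4 CPM, and stromal sums 53.2 to 67.3 and 82.1 to 88.3 CPM. Erythroid sums were 57.5 to 81.0 and 102.9 to 112.6 CPM, with Hba-a1 and Slc4a1 at 0 in WT. Of the 8 erythroid genes tested, 6 (75%) were higher in Cko without overlap, beside 8.52% of all genes. In each of these lists, a gene under 1 CPM in every WT library could pass the filter only through its 3 Cko libraries. For such genes the direction and the lack of overlap were fixed by the filter, so these counts and shares are no test. The part of cells of these types in the member values was not tested.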

How the data were processed

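RNA was sequenced from 6 libraries of sorted mouse LT-HSC, 3 WT and 3 Cko. The tools named in the submitters' processing notes are FastQC, limma, featureCounts and HISAT2, with the build mm10, and no version, strand setting or rule for multimapping reads is stated in any source used. The authors deposited log2 values for 27179 genes. These are log2 CPM of reads plus 0.5, as shown by reversing the formula, which returned whole reads for 100.0% of values (tolerance 0.01). CPM and reads in the text were computed from these recovered reads, 36747729 to 43743795 per library.

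Gene IDs were matched to RefSeq (GRCm38.p6), with 25275 matched and 1904 not. Genes at 1 CPM or more in at least 3 libraries were fitted on the deposited log2 values with limma 3.58.1 in R 4.3.3 (eBayes with a trend, no block), with Benjamini-Hochberg adjustment over 13018 genes and calls at adjusted p below 0.05. Intervals are 95% moderated intervals. The fit was tested on simulated data. Every library pair differed by more than sampling noise (chi-square per degree of freedom 38.91 to 86.09). In the first principal component (38.4% of variance) the groups separated, and WT replicates 1 and 2 were at opposite ends of the second (23.3%).

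Members and lists were chosen with earlier results of these data known. Genes are named if called, if the groups do not overlap at an unadjusted p below 0.05, or as the 3 smallest p and the extreme fold changes of a family, or the called genes and 2 smallest p of a pathway list; others were named after their values were seen. Shared sequence was measured as 50-base stretches of the longest coding transcript (GENCODE M21) found in transcripts of another gene. Alternatives were other filters, scalings, variance models, offsets, voom, the replicate number as a block and the removal of single libraries. Plots used Python 3.11.15 and matplotlib 3.10.9.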

Additional observations from a re-analysis of the deposited data

How the results depend on the processing

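The count of called members was 0 in each direction, and that of called pathway list genes 0, under all 18 alternatives, and the smallest adjusted p of any member was 0.127 (Srsf1, quantile normalization). Members with an interval inside 1.5-fold, a count chosen after the values were seen, numbered 61 without the trend and 55 to 63 without 1 library. The members' median log2 fold change was -0.008 to 0.05 without 1 library, lowest without WT replicate 1. Genes called higher and lower numbered 19 and 14 without a filter, 105 and 59 with log2(CPM + 1), 104 and 64 with log2(CPM + 5), and 20 to 64 and 19 to 28 without 1 library. Lower genes numbered 15 without the trend. Prdm16 stayed at -1.93 without the filter (adjusted p = 0.0599) and without the trend (0.0967), and at -2.17 to -1.76 without 1 library, the call being lost without Cko replicate 2 (-1.82, 0.065). Of 376 values of 21 named members, 373 kept their direction and their side of the threshold, and 3 turned, Srsf12 (-0.61, without WT replicate 1), Clk1 (0.00) and Clk2 (-0.03, both without WT replicate 2). Without 1 library these ran from -0.61 to 3.79, -0.11 to 0.00 and -0.03 to 0.15. With the replicate number as a block, 44 genes were higher and 23 lower, 0 members were called and 65 had intervals inside 1.5-fold. Same-numbered libraries did not deviate together (correlations -0.01, -0.02 and 0.02), and not every library correlated best with its own number. A count model on the recovered reads, planned if the deposited unit allowed it, was not run, as the unit is log2. The voom fit with a trend was added after the data were seen.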

Other observations

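Some members share a start region with a gene on the opposite strand. In the promoters listed, 10 members had a tested neighbour that starts within 1000 bases and runs the other way, and 0 of the 10 neighbours passed the test (limma, adjusted p below 0.05). Hnrnpa2b1 starts 722 bases from Cbx3, which encodes a heterochromatin protein, and Hnrnpa1 starts 545 bases from Cbx5, another heterochromatin protein gene. Cbx3 had a log2 fold change of -0.10 (SE 0.13) and Cbx5 of -0.19 (SE 0.15), beside 0.06 and -0.16 for the members. Srsf11 and Lrrc40, 76 bases apart, both had 0.18. Srsf2 had 0.03 and Mfsd11, whose span overlaps that of Srsf2, had 0.64 (SE 0.18, adjusted p = 0.242), the largest value among the 10 neighbours. Whether these neighbours share reads with the members depends on the strand setting, which is not given in the sources used here.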
